A study of Mus musculus with 6 samples.

Results

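The 9 genes described here are 5 ligands of the bone morphogenetic protein (BMP) family, *Bmp2*, *Bmp4*, *Bmp5*, *Bmp6* and *Gdf5*, and 4 secreted antagonists of BMP or activin signaling, *Grem1*, *Nog*, *Bmper* and *Fst*. They were taken by symbol from the 33696 genes of the deposited matrices, and each of the 9 had a row in all 6 libraries. Cells came from the Achilles tendon of *Gli1-CreERT2*; Ai9 mice given tamoxifen, a line in which cells that express *Gli1* while tamoxifen acts keep a fluorescent reporter, as do their descendants. Mice were left uninjured or were taken at 7 or 21 days after tenotomy, a cut through the tendon (7 dpi and 21 dpi). By the labels there were 24 mice, 8 per group, and their age is not stated there. Cells of each group were split by sorting on the reporter (*Gli1*+ or *Gli1*-), and either fraction, pooled over mice, gave 1 single-cell library. All 6 groups shared the genotype and the tamoxifen, and none was a control without Cre or without tamoxifen. With 1 library per group there were no replicates and no test between groups was made, so that every interval below is a 95% interval for counting error only and holds no spread between mice.

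BMP ligands are secreted dimers that bind pairs of type I and type II serine/threonine kinase receptors and act through SMAD1, SMAD5 and SMAD9, which switch on genes such as *Id1* and *Id3*. *Grem1* and *Nog* encode proteins that bind BMP ligands outside the cell and keep them from their receptors, *Bmper* encodes a chordin-like protein that binds BMPs and can either block or help their signaling, and *Fst* encodes follistatin, which binds activins most tightly and some BMPs. In tendon and bone, BMP signaling drives cartilage and bone formation, and *Gdf5* marks joint and tendon-attachment progenitors in development.

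Promoter sequences were available from RefSeq (GRCm38.p6) for 5 of the 9 genes, *Bmp4*, *Bmp5*, *Bmp6*, *Bmper* and *Grem1*. The 250 bases before the start are printed for *Grem1*, the antagonist with the highest 21 dpi ratio to uninjured, and for *Bmp4* and *Bmp6*, ligands that were lower at both times, a choice made after their values were seen. They lie at chr2:113758649-113758898 (minus strand) for *Grem1*, chr14:46390670-46390919 (minus strand) for *Bmp4* and chr13:38345466-38345715 (plus strand) for *Bmp6*. Capitals mark the GC box GGGCGG or its reverse complement CCGCCC.
Grem1: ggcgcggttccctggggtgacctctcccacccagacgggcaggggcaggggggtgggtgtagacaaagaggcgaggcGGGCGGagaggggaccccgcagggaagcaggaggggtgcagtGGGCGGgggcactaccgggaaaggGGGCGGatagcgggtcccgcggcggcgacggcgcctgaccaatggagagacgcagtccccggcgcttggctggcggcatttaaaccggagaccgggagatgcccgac
Bmp4: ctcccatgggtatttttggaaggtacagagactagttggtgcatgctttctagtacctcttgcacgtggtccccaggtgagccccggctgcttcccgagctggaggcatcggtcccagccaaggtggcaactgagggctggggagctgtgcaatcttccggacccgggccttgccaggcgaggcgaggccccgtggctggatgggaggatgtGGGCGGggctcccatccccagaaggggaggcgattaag
Bmp6: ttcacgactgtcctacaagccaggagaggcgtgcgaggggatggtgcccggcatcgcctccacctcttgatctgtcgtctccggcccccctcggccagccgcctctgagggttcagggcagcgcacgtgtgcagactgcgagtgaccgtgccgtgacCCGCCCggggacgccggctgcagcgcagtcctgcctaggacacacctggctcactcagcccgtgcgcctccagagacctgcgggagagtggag
*Grem1* held 3 GC boxes in a window of 72.0% G and C, and *Bmp4* and *Bmp6* held 1 each at 63.2% and 68.8%. The *Bmper* window held 1 at 71.6% and the *Bmp5* window none at 42.8%. Both strands were searched, and the motifs were chosen after looking at the sequences. Over 32851 promoter windows of the same length, 32.7% held a GC box, and 9.6% held the SMAD element GGCGCC, which among the 5 genes was in the *Grem1* window alone. The GLI site GACCACCCA, in 0.2% of windows, was in none of the 5. A match only describes the letters of the window.

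Before the results, the libraries differed in several ways beyond time and sort. They held 8236 to 16437 barcodes, of which 7057 to 10882 cells were kept, with median depths of 7858 to 9775 UMIs (unique molecular identifiers, 1 per captured transcript) except for 4297 in the *Gli1*- uninjured library. Any pair of libraries shared 27 to 75 barcodes. Immune-like cells were 53.9% of the *Gli1*+ uninjured library and at most 0.2% of the others, and epidermal-like cells were 19.7% of the *Gli1*+ 7 dpi library. Although the labels state equal numbers of each sex, cells with Y-linked UMIs and no *Xist* were 15%, 70.9% and 0.1% of *Gli1*+ cells (uninjured, 7 dpi, 21 dpi) and 59.6%, 70.5% and 0.1% of *Gli1*- cells, so that sex and time are mixed. *Cntn5* also differed widely, with 1.8, 172.8 and 0.6 UMIs per 1000000 (CPM) in the *Gli1*+ and 653.9, 206.4 and 0.4 CPM in the *Gli1*- libraries. Taken over all cells, *Gli1* transcripts did not separate the sorts, with 6.55, 2.17 and 4.10 CPM (*Gli1*+) against 7.64, 2.57 and 4.03 CPM (*Gli1*-). Among mesenchymal cells (defined below) the uninjured level was higher in *Gli1*+, at 13.5 CPM (12.0 to 15.1) against 9.57 CPM (8.6 to 10.6). After injury the mesenchymal level was slightly lower in *Gli1*+, with overlapping intervals. It was 2.17 CPM (1.84 to 2.54) against 2.67 CPM (2.36 to 3.02) at 7 dpi. At 21 dpi it was 4.20 CPM (3.76 to 4.67) against 4.70 CPM (4.23 to 5.21). *Gli1*+ and *Gli1*- therefore stand for the libraries labelled so.

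Levels below are from mesenchymal cells, the clusters named by marker lists as mesenchymal or with *Dcn* at 2000 CPM or more, unless another class is named. Each level in CPM is a gene's UMIs summed over these cells, per 1000000 UMIs of the same cells. Such a sum cannot tell fewer expressing cells from less RNA per cell. There were 2447, 7022 and 8074 *Gli1*+ mesenchymal cells (uninjured, 7 dpi, 21 dpi) and 5803, 8015 and 7602 *Gli1*- ones. Values are given in this order of time throughout. The summed level of the 7 epidermal markers in mesenchymal cells was 2398 CPM in the *Gli1*+ 7 dpi library and 32.0 to 218.4 CPM in the other 5, with *Krt14* and *Krt5* at 0 in the *Gli1*- uninjured library. The run without cells that carry such UMIs is given with the balance. The 6 mural markers, all detected in each library, summed to 43.4, 726.4 and 241.6 CPM among *Gli1*+ and 231.8, 570.7 and 232.4 CPM among *Gli1*- mesenchymal cells, highest at 7 dpi in both sorts, and their part in the results was not tested. Each of the other lists summed to 103.7 CPM or less in every library. The label "tendon cells" was seen only in part by the naming rule. Few uninjured cells were named tenocyte-like (*Tnmd*, *Fmod*, *Thbs4*), with 49 and 5 cells in the tenocyte-like cluster 17. Cluster 9, which has no name (see the clusters), held 710 and 201 uninjured cells, and whether it holds tenocytes was not tested.

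*Bmp2* and *Bmp4*, the classical bone-inducing ligands, were lower after injury in both sorts. The *Bmp2* level was 158.2 CPM in uninjured *Gli1*+ cells (153.2 to 163.5), 19.9 CPM at 7 dpi (18.9 to 21.0) and 61.7 CPM at 21 dpi (59.96 to 63.4). In *Gli1*- cells it was 142.3 CPM (138.5 to 146.2), 21.4 CPM (20.5 to 22.3) and 54.3 CPM (52.6 to 55.9). The uninjured libraries were highest, the 7 dpi libraries lowest and the 21 dpi libraries between them, and at 7 dpi the intervals of both sorts overlapped. The log2 ratio to uninjured was -2.99 (-3.08 to -2.90) at 7 dpi and -1.36 (-1.42 to -1.30) at 21 dpi among *Gli1*+ cells, and -2.73 (-2.81 to -2.66) and -1.39 (-1.45 to -1.33) among *Gli1*- cells. At 21 dpi *Bmp2* was 3.095-fold above 7 dpi among *Gli1*+ and 2.54-fold among *Gli1*- cells, but 1.21-fold and 1.23-fold, no longer called, without cluster 23 (described with the clusters).

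For *Bmp4*, the level was 88.7, 8.40 and 21.3 CPM among *Gli1*+ cells and 155.2, 15.4 and 19.5 CPM among *Gli1*- cells. The *Gli1*- uninjured library was highest of the 6, and the *Gli1*+ 7 dpi library lowest. The log2 ratio to uninjured was -3.40 (-3.54 to -3.27) and -2.06 (-2.15 to -1.96) among *Gli1*+ cells and -3.33 (-3.41 to -3.25) and -2.99 (-3.07 to -2.91) among *Gli1*- cells, the lowest ratios of the 9 genes at 7 dpi in both sorts. Among the 48 *Gli1*+ 7 dpi cells free of other types' markers (described with the balance) the value was -1.08, and *Bmp2*, at -3.43, was then below it. Single-gene values of these 48 cells rest on few UMIs and are given without intervals, here and below. From 7 to 21 dpi the log2 ratio was 1.35 (1.21 to 1.48) among *Gli1*+ and 0.34 (0.24 to 0.44) among *Gli1*- cells.

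*Bmp5* and *Bmp6*, closely related ligands of 1 subgroup of the family, were also lower. The *Bmp5* level was 65.4, 19.3 and 14.8 CPM among *Gli1*+ cells and 43.5, 18.4 and 19.1 CPM among *Gli1*- cells. Both uninjured libraries lay above the 4 injured ones, and the *Gli1*- levels at 7 and 21 dpi had overlapping intervals. The *Bmp5* log2 ratio to uninjured was -1.76 (-1.87 to -1.66) and -2.14 (-2.25 to -2.03) among *Gli1*+ and -1.24 (-1.33 to -1.14) and -1.19 (-1.29 to -1.08) among *Gli1*- cells. Among those 48 *Gli1*+ 7 dpi cells the *Bmp5* log2 ratio was 0.57, of the other sign, but from few UMIs and without an interval. As a mean over cells the *Bmp5* ratio was under 2-fold in *Gli1*-, at -0.49 and -0.63. For *Bmp6*, the level was 55.5, 7.73 and 14.9 CPM among *Gli1*+ and 48.7, 9.69 and 18.3 CPM among *Gli1*- cells. Its order was that of *Bmp2*, with log2 ratios to uninjured of -2.85 (-2.99 to -2.70) and -1.90 (-2.01 to -1.78) among *Gli1*+ and -2.33 (-2.45 to -2.22) and -1.41 (-1.52 to -1.31) among *Gli1*- cells. Among the same 48 cells the 7 dpi value was -0.49, under 2-fold and again without an interval. Without cluster 9 (described with the clusters), the *Gli1*+ log2 ratios were smaller in size but still past 2-fold. They were -1.145 and -1.715 for *Bmp5* and -2.04 and -1.16 for *Bmp6*.

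*Gdf5*, the ligand of developing joints, went the other way from a level near the floor. It had 6, 67 and 595 UMIs among *Gli1*+ cells, or 0.260 CPM (0.0953 to 0.565), 0.933 CPM (0.723 to 1.19) and 7.41 CPM (6.83 to 8.03). In *Gli1*- cells it had 4, 94 and 536 UMIs, or 0.108 CPM (0.0294 to 0.276), 0.948 CPM (0.766 to 1.16) and 6.96 CPM (6.39 to 7.58). The 21 dpi libraries were highest in both sorts and overlapped with each other, as did the 7 dpi libraries. At 21 dpi the log2 ratio to uninjured was 4.83 (3.70 to 6.29) among *Gli1*+ and 6.01 (4.65 to 7.89) among *Gli1*- cells, and at 7 dpi it was 1.85 (0.65 to 3.34) and 3.14 (1.73 to 5.04). Within cells with Y-linked UMIs and no *Xist*, the 7 dpi ratio among *Gli1*+ cells was 0.21 (-1.10 to 1.88), no longer past 2-fold.

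**Figure D1:**
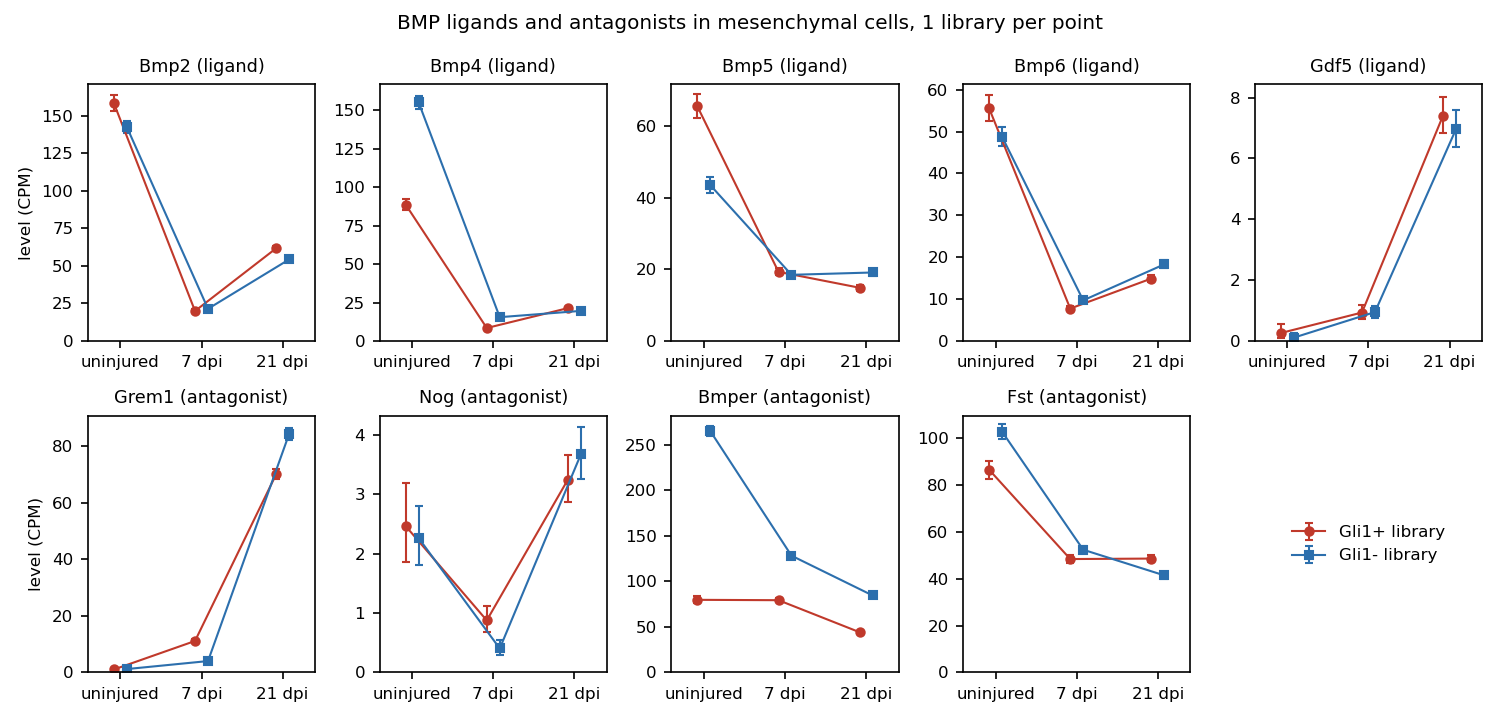
Level (CPM, vertical axis from 0) of each gene in mesenchymal cells of the uninjured, 7 dpi and 21 dpi libraries, with *Gli1*+ libraries as red circles, *Gli1*- libraries as blue squares and exact Poisson 95% intervals as bars. *Bmp2*, *Bmp4*, *Bmp5* and *Bmp6* are highest in the uninjured libraries, while *Grem1* and *Gdf5* are highest at 21 dpi.

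*Grem1*, which encodes gremlin 1, had the largest change of the 4 antagonists at 21 dpi in both sorts. It had 24, 799 and 5626 UMIs among *Gli1*+ cells, or 1.04 CPM (0.666 to 1.55), 11.1 CPM (10.4 to 11.9) and 70.1 CPM (68.2 to 71.9). The *Gli1*- counts were 44, 398 and 6490 UMIs, or 1.19 CPM (0.862 to 1.59), 4.01 CPM (3.63 to 4.43) and 84.3 CPM (82.3 to 86.4). Both 21 dpi libraries stood far above the rest, and the uninjured libraries overlapped with each other at the bottom. The fold over uninjured was 10.7 at 7 dpi and 67.4 at 21 dpi among *Gli1*+ cells, log2 ratios of 3.42 (2.84 to 4.07) and 6.08 (5.50 to 6.72). The *Gli1*- folds were 3.38 and 71.1, log2 ratios of 1.76 (1.31 to 2.24) and 6.15 (5.73 to 6.61). The *Gli1*+ value at 7 dpi ranged from 2.19 to 6.14 over the settings run, the latter within cells with Y-linked UMIs and no *Xist* (3.66 to 11.45), where the uninjured library had 1 UMI.

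*Nog*, which encodes noggin, was scarce in every library, with 40 to 283 UMIs. Its level was 2.47, 0.877 and 3.25 CPM among *Gli1*+ and 2.27, 0.404 and 3.68 CPM among *Gli1*- cells. The 7 dpi libraries were lowest in both sorts, at log2 ratios to uninjured of -1.49 (-2.03 to -0.95) and -2.49 (-3.07 to -1.93). At 21 dpi the log2 ratio was 0.40 (-0.02 to 0.84) among *Gli1*+ and 0.70 (0.34 to 1.07) among *Gli1*- cells, under 2-fold in both. Over all kept cells the *Gli1*+ value was 1.48 (1.10 to 1.89), past 2-fold.

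The level of *Bmper* was lower in *Gli1*+ than in *Gli1*- libraries at all 3 times. It was 79.8, 79.4 and 44.2 CPM among *Gli1*+ cells against 265.1, 128.3 and 84.6 CPM among *Gli1*- cells. The log2 ratio to uninjured was -0.01 (-0.08 to 0.07) and -0.85 (-0.93 to -0.77) among *Gli1*+ and -1.05 (-1.09 to -1.01) and -1.65 (-1.69 to -1.60) among *Gli1*- cells. The *Gli1*+ interval at 7 dpi included 0, and TMM and median-of-ratios scaling, which shift every gene of a comparison alike, put it at 0.23 and 0.25. Over all kept cells it was 1.07, past 2-fold, where immune-like cells filled much of the uninjured library. Without cluster 9, *Bmper* at 21 dpi passed 2-fold among *Gli1*+ cells, at -1.17.

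For *Fst*, the level was 86.5, 48.4 and 48.6 CPM among *Gli1*+ and 102.7, 52.4 and 41.4 CPM among *Gli1*- cells. The uninjured libraries were highest, and the *Gli1*+ levels at 7 and 21 dpi overlapped. The log2 ratio to uninjured was -0.84 (-0.92 to -0.76) and -0.83 (-0.91 to -0.75) among *Gli1*+ and -0.97 (-1.03 to -0.91) and -1.31 (-1.38 to -1.24) among *Gli1*- cells, past 2-fold at *Gli1*- 21 dpi alone. Over all kept cells, both *Gli1*+ values were above 0, at 0.23 and 0.61, and without cluster 9 (described with the clusters) both passed 2-fold, at -1.26 and -1.22. The *Gli1*+ value at 7 dpi also passed 2-fold as a mean over cells (-1.11) and among mesenchymal cells taken by their own UMIs (-2.66 in 48 cells, or -1.90 with every barcode kept), and that at 21 dpi without cluster 23 (-1.02). In *Gli1*- at 7 dpi, cells with Y-linked UMIs and no *Xist* gave -1.01 (-1.08 to -0.95).

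With 1 library per group, a gene was called where its ratio was 2-fold or more. At 7 dpi among *Gli1*+ cells, 2 of the 9 were higher (*Gdf5*, *Grem1*) and 5 lower (*Bmp2*, *Bmp4*, *Bmp5*, *Bmp6*, *Nog*), where 14.1% of 17359 genes were higher and 20.9% lower (35.0% either way). At 21 dpi among *Gli1*+ cells, 2 were higher and 4 lower (*Bmp2*, *Bmp4*, *Bmp5*, *Bmp6*), against 8.17% and 21.4% (29.6% either way) of 16912 genes. In *Gli1*- cells 2 were higher and 6 lower at each time, with *Nog* and *Bmper* beside the 4 ligands at 7 dpi and *Bmper* and *Fst* at 21 dpi. All genes gave 14.8% higher and 16.1% lower (30.9% either way) at 7 dpi and 13.3% and 16.7% (30%) at 21 dpi. The 9 genes had median log2 ratios of -1.49 and -0.85 (*Gli1*+) and -1.24 and -1.31 (*Gli1*-), beside medians over all genes of -0.18, -0.34, -0.08 and -0.12. *Bmp2*, *Bmp4*, *Bmp5* and *Bmp6* were 2-fold lower, and *Grem1* and *Gdf5* 2-fold higher, in mesenchymal cells of both sorts at both times. The calls of *Grem1* held in each setting that gave a value, while each of the 5 ligands lost at least 1 call in some setting. Over all kept cells, *Bmp2* (-0.35), *Bmp4* (-0.97) and *Bmp5* (-0.89) in *Gli1*+ at 21 dpi, *Bmp5* (-0.71) and *Nog* (-0.29) in *Gli1*+ at 7 dpi, and *Bmp5* (-0.92) and *Fst* (-0.83) in *Gli1*- at 21 dpi were under 2-fold. *Bmp2* in *Gli1*+ at 21 dpi was also under 2-fold with TMM (-0.97) and median-of-ratios (-0.96) scaling. *Bmper* in *Gli1*- at 7 dpi was between -0.99 and -0.65 in 6 settings. Of all genes, 10.9% were lower and 9.39% higher in both sorts at 7 dpi, and 10.8% and 6.34% at 21 dpi.

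**Figure D2:**
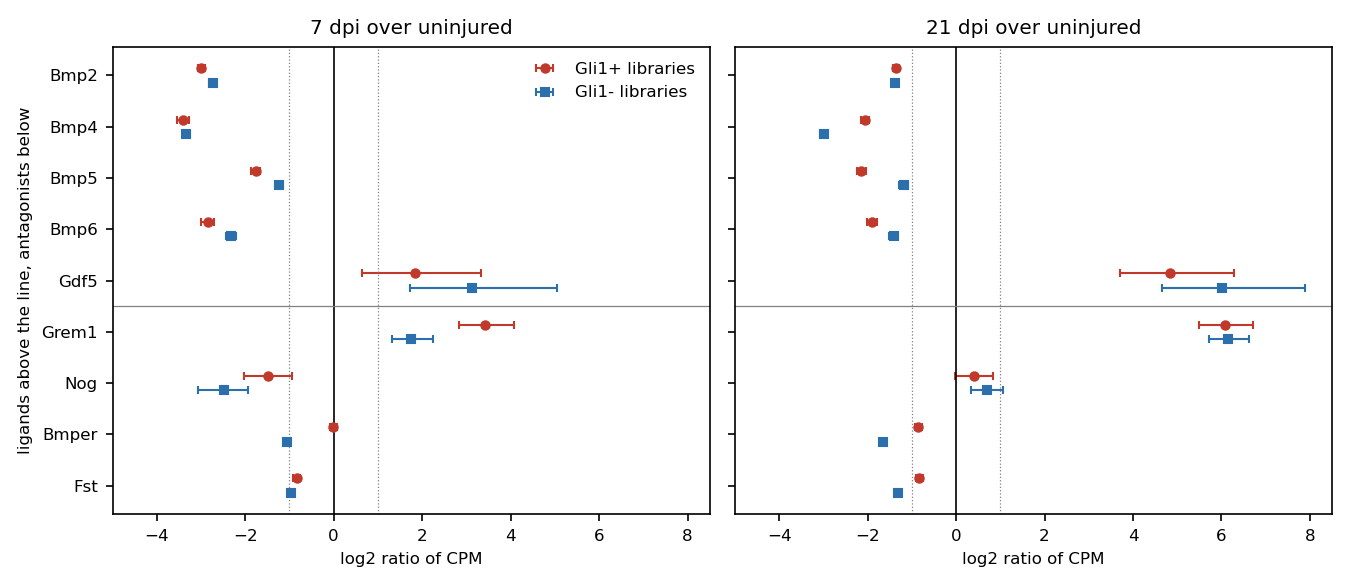
Log2 ratio of CPM in mesenchymal cells over the uninjured library of the same sort at 7 dpi (left) and 21 dpi (right), for *Gli1*+ (red circles) and *Gli1*- libraries (blue squares), with exact binomial 95% intervals and dotted lines at 2-fold. *Bmp2*, *Bmp4*, *Bmp5* and *Bmp6* lie left of the lower line in both panels, and *Gdf5* and *Grem1* right of the upper one, with *Grem1* at 6.08 and 6.15 at 21 dpi.

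From 7 to 21 dpi, no gene of the 9 was called lower, where 12.0% (*Gli1*+) and 7.66% (*Gli1*-) of all genes were. In *Gli1*+ cells 5 were called higher (*Bmp2*, *Bmp4*, *Gdf5*, *Grem1*, *Nog*), where 4.83% of all genes were, and among *Gli1*- cells 4 (*Bmp2*, *Gdf5*, *Grem1*, *Nog*), where 5.87% were. *Grem1* had the largest of these ratios among *Gli1*- cells, 21.0-fold, and 6.30-fold among *Gli1*+ cells. Without cluster 23 it was 3.79-fold among *Gli1*- cells and not called among *Gli1*+ cells, at a log2 ratio of 0.01 (-0.14 to 0.16), and the *Bmp2* calls were lost as given above. *Nog* was 3.71-fold higher among *Gli1*+ and 9.11-fold among *Gli1*- cells from its low at 7 dpi. Cells with *Xist* and no Y-linked UMIs were 92.7% and 90.5% of the 21 dpi libraries and 0.0% of both 7 dpi libraries, so that sex and time cannot be told apart in this comparison.

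Between the sorts the 9 genes differed little at 21 dpi, where none of the 9 passed 2-fold and 3.25% of all genes did (1.28% higher and 1.97% lower in *Gli1*+). The widest gap there was *Bmper*, with a log2 ratio of *Gli1*+ over *Gli1*- of -0.94 (-0.997 to -0.878). In uninjured cells, of the 8 genes with enough UMIs, *Bmper* was called lower in *Gli1*+ at -1.73 (-1.81 to -1.66), where 5.38% of all genes were lower. *Bmp4* was at -0.81 (-0.88 to -0.73) and *Bmp5* at 0.59 (0.49 to 0.69). Without cluster 9, *Bmp5* was at 0.06 (-0.07 to 0.19) and *Bmp6* turned from 0.19 to -0.53 (-0.67 to -0.38). Within uninjured cells with Y-linked UMIs and no *Xist*, *Bmper* was at -1.46 (-1.58 to -1.34), and *Grem1* also passed 2-fold, at -3.18 (-8.51 to -0.63), on 1 against 44 UMIs. At 7 dpi *Grem1*, at 1.47 (1.29 to 1.65), and *Nog*, at 1.12 (0.53 to 1.73) on 63 and 40 UMIs, were called higher among *Gli1*+ cells, where 4.37% of all genes were and 6.12% passed 2-fold either way. Within such cells at 7 dpi, *Grem1* was at 1.49 (1.30 to 1.67) and *Nog* at 0.88 (0.21 to 1.56), under 2-fold.

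The balance of the 2 sides was taken as the log2 ratio of summed ligand UMIs to summed antagonist UMIs. Capture differs from gene to gene, so only its change between libraries is read. In mesenchymal cells the balance of *Gli1*+ libraries was 1.12 (1.06 to 1.17) uninjured, -1.31 (-1.36 to -1.26) at 7 dpi and -0.47 (-0.51 to -0.43) at 21 dpi. For *Gli1*- libraries it was 0.07 (0.04 to 0.10), -1.49 (-1.53 to -1.45) and -0.86 (-0.89 to -0.82). Each sort thus had its highest balance uninjured and its lowest at 7 dpi.

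The change from uninjured was -2.43 (-2.51 to -2.35) at 7 dpi and -1.58 (-1.65 to -1.52) at 21 dpi among *Gli1*+ cells, and -1.56 (-1.61 to -1.51) and -0.93 (-0.98 to -0.88) among *Gli1*- cells. At 7 dpi it came with less ligand, since summed ligands were 368.2 CPM uninjured and 56.3 CPM at 7 dpi among *Gli1*+ cells, while antagonists were 169.8 and 139.7 CPM. *Gli1*- ligands were 389.8 and 65.9 CPM, and antagonists 371.3 and 185.1 CPM. At 21 dpi ligands were 120.1 and 118.1 CPM among *Gli1*+ and *Gli1*- cells, and antagonists 166.0 and 214.0 CPM. The balance moved back by 0.85 (0.78 to 0.91) among *Gli1*+ and 0.63 (0.58 to 0.69) among *Gli1*- cells between 7 and 21 dpi. Between the sorts the balance differed by 1.05 (0.98 to 1.11) in uninjured cells, and by 0.18 and 0.39 at 7 and 21 dpi. With *Bmper* left out these differences were 0.16, -0.32 (-0.40 to -0.24) and 0.11, so that the sign turned at 7 dpi.

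Single genes carried much of it at 21 dpi. *Grem1* was 0.6%, 8.0% and 42.2% of antagonist UMIs among *Gli1*+ cells (uninjured, 7 dpi, 21 dpi) and 0.3%, 2.2% and 39.4% among *Gli1*- cells. *Bmper* was 47.0%, 56.8% and 26.6% among *Gli1*+ and 71.4%, 69.3% and 39.5% among *Gli1*- cells. With *Grem1* left out, the change at 21 dpi was -0.80 (-0.87 to -0.73) among *Gli1*+ and -0.21 (-0.26 to -0.16) among *Gli1*- cells. Leaving out *Bmper* gave -2.05 and -2.01 instead, and turned the *Gli1*- change from 7 to 21 dpi from 0.63 to -0.35 (-0.41 to -0.28). The *Gli1*+ change from 7 to 21 dpi was then 0.08 (0.01 to 0.15) in place of 0.85. At 7 dpi, leaving out any 1 gene kept the change over uninjured between -2.84 and -2.13 among *Gli1*+ and between -1.86 and -1.21 among *Gli1*- cells.

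Within 1 sex the change could be measured for 3 of the 4 comparisons with uninjured. In cells with Y-linked UMIs and no *Xist* the 7 dpi change was -2.63 (-2.75 to -2.51) in *Gli1*+ (5040 against 594 cells) and -1.66 (-1.72 to -1.60) in *Gli1*- libraries (6078 against 4080 cells). In cells with *Xist* and no Y-linked UMIs the *Gli1*+ change at 21 dpi was -1.59 (-1.67 to -1.51), from 7506 against 1479 cells. For *Gli1*- 21 dpi over uninjured neither sex had 20 cells in both libraries, so that sex and time cannot be told apart there. The *Gli1*+ 7 dpi library had few cells free of other types' markers. Where mesenchymal cells were taken by their own UMIs and any with a *Krt14*, *Krt5* or other excluded UMI was dropped, 48 cells of this library remained, and its balance change was 0.22 (-0.80 to 1.23), with 3 genes past 2-fold in place of 7. Without cluster 9 (defined in the next paragraph) the *Gli1*+ changes were -1.92 and -1.14.

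The balance ranged widely over the mesenchymal clusters. The 9 genes were kept out of the genes used for clustering, and values are given where a library had at least 50 cells of a cluster. Cluster 4 was tendon stem cell-like and led by *Sema3e*, *Dpp4* and *Cd55*. Cluster 7 was led by *Inmt* and *Ccl11*, and cluster 9 by *Col22a1*, *Chad* and *Chodl*, the last a marker of another list, so that cluster 9 has no name. Cluster 4 had a balance of 2.04 in the *Gli1*+ uninjured and -0.03 in the *Gli1*+ 21 dpi library, a change of -2.06 (-2.26 to -1.86). In *Gli1*- libraries it had 1.21, -0.33 and 0.32, with changes over uninjured of -1.54 (-1.69 to -1.39) and -0.89 (-1.05 to -0.73). In cluster 7 the change at 21 dpi was -0.05 (-0.26 to 0.17) in *Gli1*+, and the *Gli1*- changes were -0.36 (-0.45 to -0.27) and -0.16 (-0.29 to -0.04). Cluster 9 had balances from 2.97 to 3.68, above those of clusters 4 and 7 in each of the 5 libraries with a value. Its change at 21 dpi was -0.72 (-1.16 to -0.27) among *Gli1*+ cells, and both *Gli1*- changes had intervals that included 0. The difference between the uninjured sorts, 1.05 over all mesenchymal cells, was smaller within each of these clusters. It was 0.82 (0.66 to 0.985) in cluster 4, 0.17 (0.08 to 0.25) in cluster 7 and 0.10 (-0.39 to 0.58) in cluster 9. Cluster 9 was 29.0% of *Gli1*+ and 3.5% of *Gli1*- uninjured mesenchymal cells.

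**Figure D3:**
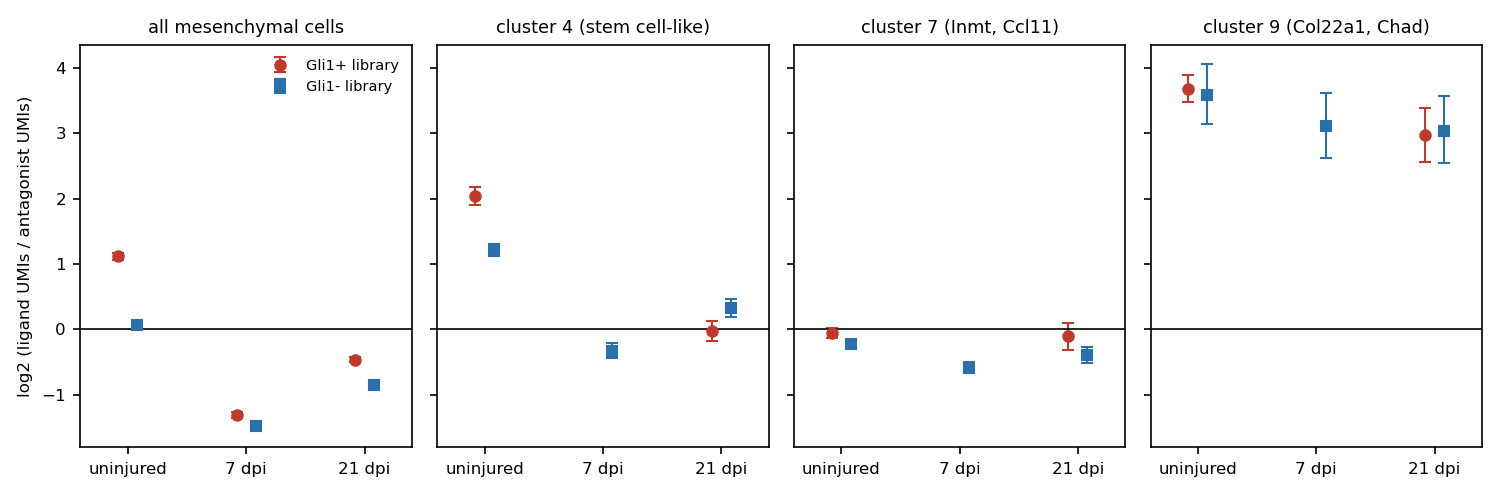
Balance (log2 of ligand UMIs over antagonist UMIs, vertical axis) by time point in all mesenchymal cells and in the 3 clusters with at least 50 cells in both uninjured libraries and after injury, with *Gli1*+ libraries as red circles, *Gli1*- libraries as blue squares and 95% intervals as bars. The 5 points of cluster 7 lie between -0.59 and -0.06 and those of cluster 9 between 2.97 and 3.68, and the *Gli1*+ 7 dpi library is missing from the 3 clusters, with under 50 cells in each.

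Clusters that were nearly absent from uninjured tendon differed widely from each other. Cluster 6 (*Crabp1*, *Tnn*), which was almost only in the *Gli1*+ 7 dpi library, had a balance of -1.67. Cluster 15 (*H19*, *Ptn*, *Tnn*), of which 3965 cells were in the *Gli1*- 7 dpi library, had -2.26 there. Clusters so tied to 1 library may be that library as much as a type. Cluster 14 (*Cxcl13*, *Sfrp4*) had the lowest values, at -1.94 in *Gli1*+ 21 dpi, -2.43 in *Gli1*- 7 dpi and -2.51 in *Gli1*- 21 dpi. Osteochondral-like cluster 19 (*Col2a1*, *Bglap*, *Ibsp*) was at 0.76 in *Gli1*+ 21 dpi, 0.19 (-0.18 to 0.56) in *Gli1*- 7 dpi and 0.31 in *Gli1*- 21 dpi, and tenocyte-like cluster 17 was at -0.13, 1.02 and -0.25. Tenocyte-like cluster 22 (*Scx*, *Kera*), found in the *Gli1*+ 7 dpi library, was at 2.77.

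At 21 dpi *Grem1* sat mainly in cluster 23, led by *Saa3*, *Mmp10*, *Il11* and *Grem1* itself. Its 845 and 905 cells were 8.64% and 8.33% of the 21 dpi libraries (*Gli1*+ and *Gli1*-) and held 86.2% and 87.3% of their *Grem1* UMIs. The *Grem1* level in cluster 23 was 334.7 CPM (325.4 to 344.2) in *Gli1*+ 21 dpi, 57.7 CPM (46.4 to 71.0) in *Gli1*- 7 dpi and 351.7 CPM (342.7 to 360.9) in *Gli1*- 21 dpi cells. In clusters 4, 7, 9, 14 and 17 it was under 10 CPM in every library. Cluster 15 (40.3 and 43.8 CPM) and osteochondral-like cells (27.8 and 47.1 CPM) were between at 21 dpi. Without cluster 23, *Grem1* was still higher at 21 dpi than in uninjured cells, at log2 ratios of 3.38 (2.80 to 4.03) among *Gli1*+ and 3.34 (2.90 to 3.81) among *Gli1*- cells, while the *Gli1*+ level at 21 dpi, 10.8 CPM, was then close to the 10.7 CPM at 7 dpi.

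Cluster 23 was also rich in *Bmp2* and *Gdf5*. It held 60.5% and 52.3% of the *Bmp2* UMIs and 44.4% and 57.7% of the *Gdf5* UMIs of the 21 dpi libraries. The *Bmp2* level there was 230.9 CPM among *Gli1*+ and 160.7 CPM in *Gli1*- 21 dpi cells. Stem cell-like cluster 4, the site of the highest uninjured *Bmp2* levels (240.7 and 242.4 CPM), had 21.5 CPM among *Gli1*+ and 36.2 CPM among *Gli1*- cells at 21 dpi. Without cluster 23 the *Bmp2* log2 ratio of 21 dpi to uninjured was -2.73 (-2.82 to -2.65) among *Gli1*+ and -2.48 (-2.57 to -2.40) among *Gli1*- cells. Cluster 23 had no cells in either uninjured library.

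*Bmper* UMIs were mainly in other clusters. Cluster 7 held 77.6% of the *Bmper* UMIs of the *Gli1*+ and 90.1% of the *Gli1*- uninjured library, with levels of 167.5 and 341.0 CPM. In the same cluster the *Gli1*- level was 329.9 CPM at 7 dpi and 260.8 CPM at 21 dpi. Cluster 7 was 4436 of 5803 mesenchymal cells in the *Gli1*- uninjured library and 1340 and 918 cells at 7 and 21 dpi. At 21 dpi cluster 14 held 51.6% and 52.7% of *Bmper* UMIs, at 111.7 CPM among *Gli1*+ and 192.9 CPM among *Gli1*- cells, while cluster 23 had 21.5 and 34.9 CPM. Cluster 23 held 8.59% and 8.42% of the *Bmper* UMIs, near its 8.64% and 8.33% of cells. Before injury cluster 7 also held 58.5% and 73.0% of *Fst* UMIs and 39.4% and 75.7% of *Bmp4* UMIs of the *Gli1*+ and *Gli1*- library.

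**Figure D4:**
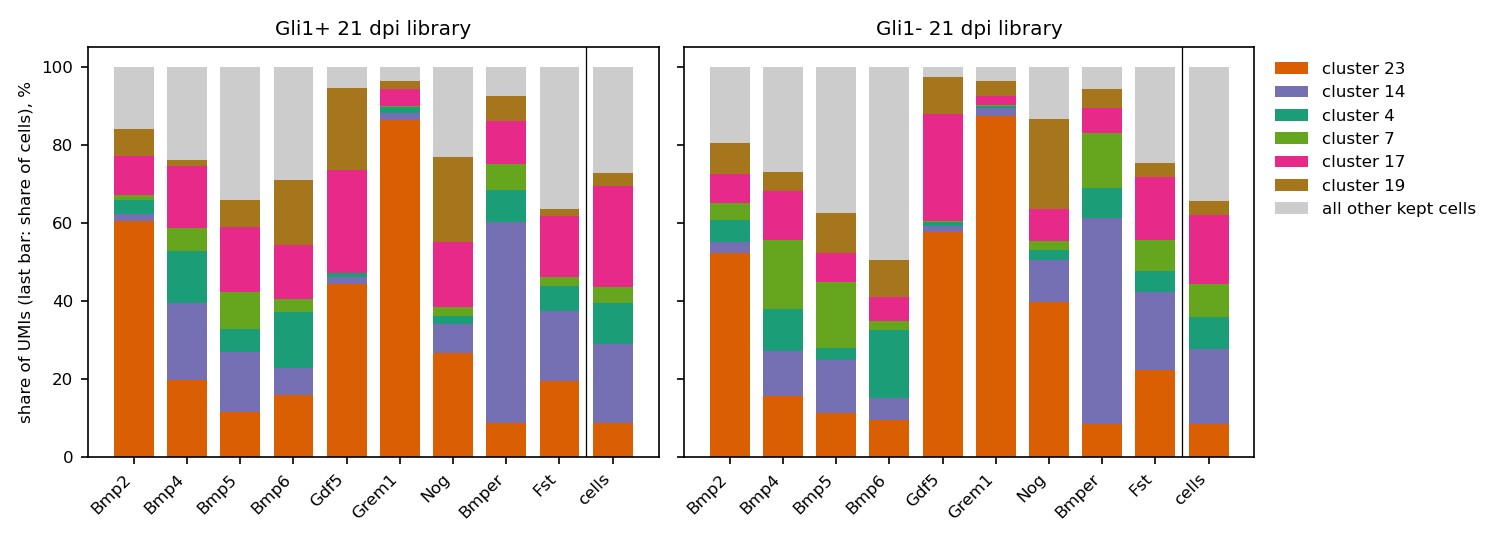
Share of each gene's UMIs (vertical axis, percent of the library's UMIs of that gene) held by 6 clusters and by all other kept cells in the *Gli1*+ (left) and *Gli1*- (right) 21 dpi libraries, with the share of cells in the last bar. Cluster 23 holds 86.2% and 87.3% of *Grem1* UMIs, cluster 14 holds 51.6% and 52.7% of *Bmper* UMIs, and neither share is near the cluster's share of cells.

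*Bmp5* did not move alike in all clusters. In cluster 7 its level was 54.8 CPM uninjured and 76.5 CPM at 21 dpi among *Gli1*+ cells, and 49.8, 97.0 and 99.3 CPM among *Gli1*- cells. In cluster 9 it was 126.3 and 81.8 CPM in *Gli1*+, and 124.4, 90.3 and 84.6 CPM among *Gli1*- cells. The lower *Bmp5* level of mesenchymal cells after injury was thus not seen within cluster 7, whose share of cells was smaller after injury. *Bmp4* was lower in cluster 7 itself, at 102.8 and 60.7 CPM among *Gli1*+ and 188.3, 99.96 and 93.5 CPM among *Gli1*- cells. A small cluster of 190 *Gli1*+ 21 dpi cells (cluster 21, led by *Gpc5* and *Nrg3*) had *Bmp4* at 223.4 CPM and *Nog* at 32.1 CPM.

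*Gdf5* and *Nog* were both found in osteochondral-like cells. The *Gdf5* level there was 28.1 CPM in *Gli1*+ 21 dpi, 24.6 CPM (15.6 to 36.9) in the 50 cells of *Gli1*- 7 dpi and 9.45 CPM (7.06 to 12.4) in *Gli1*- 21 dpi. *Nog* was 14.02 and 13.1 CPM in osteochondral-like cells at 21 dpi, and 2.14 CPM in *Gli1*- 7 dpi. At 21 dpi, *Gdf5* was 18.2 and 19.2 CPM in cluster 23, below the osteochondral-like level in *Gli1*+ and above it in *Gli1*- cells. It was 6.002 and 7.25 CPM in tenocyte-like cluster 17 at 21 dpi, and under 3 CPM in clusters 4, 7, 9 and 14 in every library.

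Outside the mesenchyme, *Bmp6* belonged to vessels and muscle as well. Its level in blood endothelial-like cells was 428.0, 48.1 and 35.5 CPM among *Gli1*+ and 529.6, 92.4 and 85.2 CPM in *Gli1*- libraries. These cells held 66.5% of all *Bmp6* UMIs of the *Gli1*- uninjured library. The endothelial class is made of cluster 3 (*Timp4*, *Gpihbp1*) and cluster 18 (*Selp*, *Sele*), whose shares changed. Within cluster 3 alone *Bmp6* was 471.9, 90.8 and 211.3 CPM among *Gli1*+ and 571.3, 191.0 and 356.6 CPM in *Gli1*- libraries, lowest at 7 dpi in both sorts. Skeletal muscle-like cells had 228.9 to 304.7 CPM of *Bmp6* in the 4 libraries with enough of them, and Schwann-like cells of *Gli1*- libraries had 214.4, 134.2 and 73.6 CPM.

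Of the other ligands, *Bmp5* was, of the classes outside the mesenchyme, highest in mural-like cells of the vessel wall. It was at 193.2, 118.5 and 57.9 CPM among *Gli1*+ and 145.3, 102.4 and 75.6 CPM in *Gli1*- libraries, lower at each later time in both sorts. This class is made of clusters 10 and 12, whose shares changed. In *Gli1*- libraries cluster 10 had 663, 170 and 96 cells with 412, 63 and 40 *Bmp5* UMIs. Cluster 12 had 246, 370 and 944 cells with 100, 245 and 600 *Bmp5* UMIs. The class level alone therefore cannot tell a change within either cluster from a change of shares. These counts are not scaled for depth, and no change within a cluster is read from them. *Bmp4* was 66.3 to 152.3 CPM in skeletal muscle-like cells. *Bmp2* was 48.9 to 81.9 CPM in mural-like cells of all 6 libraries, with both extremes in *Gli1*+ libraries. In immune-like cells of the *Gli1*+ uninjured library it was 20.3 CPM, and 52.0 CPM in cluster 2 of that class (*C1qa*, *Mrc1*).

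Antagonists were also found outside the mesenchyme. Schwann-like cells had *Bmper* at 68.1, 99.2 and 93.9 CPM and *Fst* at 13.5, 21.4 and 93.9 CPM in *Gli1*- libraries. Epidermal-like cells had *Fst* at 47.1, 29.8 and 112.7 CPM in *Gli1*+ libraries. Blood endothelial-like cells had little of any antagonist, with a balance of 3.12 to 6.38 over the 6 libraries. Mural-like cells were at 3.89, 2.52 and 0.60 in *Gli1*- libraries and at 1.45, 1.68 and -0.08 in *Gli1*+ libraries. Cluster 12 of this class held 52 of its 68 *Fst* UMIs in the *Gli1*- uninjured library and 656 of 660 in the *Gli1*- 21 dpi library. With its share of the class changed as given above, a change within mural-like cells was not separated from a change of shares.

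**Figure D5:**
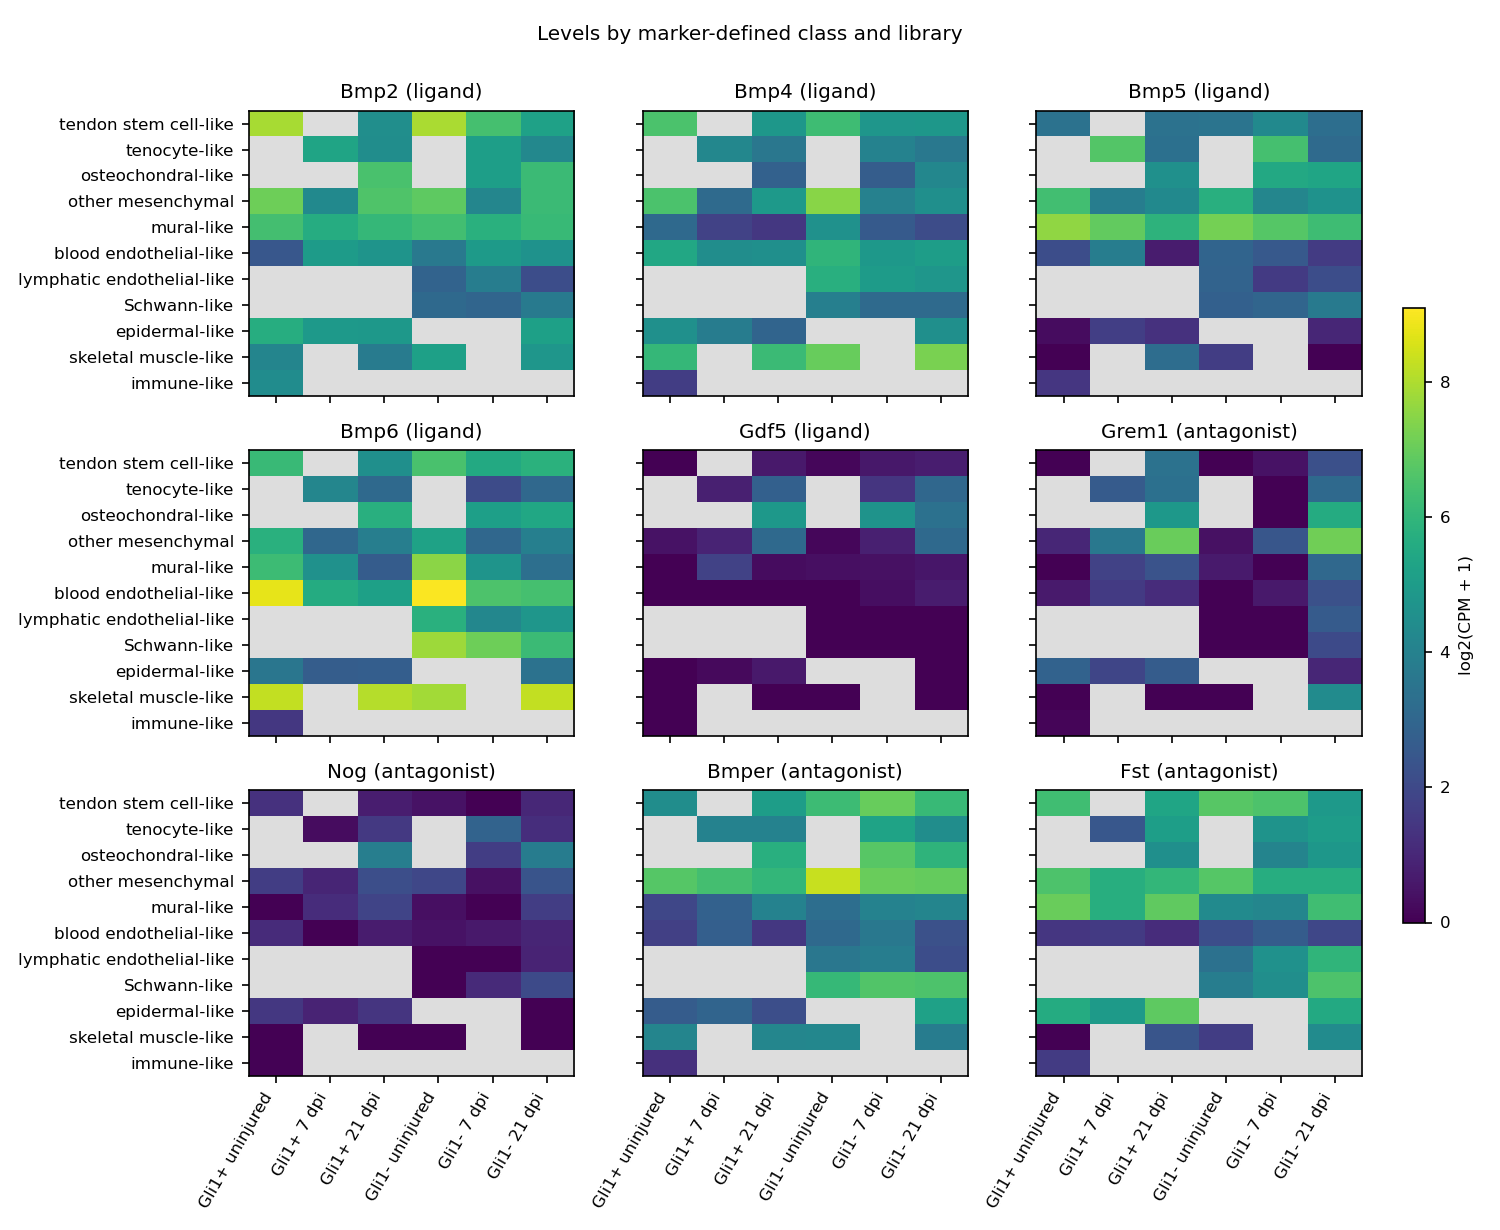
Heat maps of log2(CPM + 1) (color scale) for each gene in marker-defined classes (rows) and the 6 libraries (columns), with grey where a library had under 50 cells of a class. *Bmp6* is brightest in blood endothelial-like cells of the uninjured libraries (428.0 and 529.6 CPM), and *Grem1* in other mesenchymal cells at 21 dpi (128.7 and 140.3 CPM).

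The share of cells with a UMI followed the sums. Each cell was thinned to 2000 UMIs, which left out 40 to 254 mesenchymal cells per library, and the unthinned share is in brackets. *Bmp2* was found in 20.9%, 3.88% and 5.90% (45.1%, 11.5% and 14.2%) of *Gli1*+ and in 18.0%, 4.55% and 6.38% (35.2%, 13.2% and 16.0%) of *Gli1*- mesenchymal cells. *Grem1* was found in 0.125%, 1.59% and 4.69% (0.368%, 5.25% and 10.8%) of *Gli1*+ and in 0.107%, 0.506% and 5.62% (0.138%, 2.15% and 11.7%) of *Gli1*- cells. In cluster 23 at 21 dpi *Grem1* was found in 33.1% and 34.2% (65.9% and 63.1%). Blood endothelial-like cells, taken as a class that should lack *Grem1*, had it in 0 to 0.805% after thinning, at median depths of 2221.5 to 5955 UMIs against 5786 to 11502 in mesenchymal cells. In the uninjured libraries that class had none after thinning, which by a floor of 3 cells allows up to 0.98% and 0.126%, and 0.287% and 0.0% unthinned. The floor limits lie above the thinned uninjured mesenchymal shares of 0.125% and 0.107%, so this class sets no background for them. The few *Grem1* UMIs of the *Gli1*- uninjured library were not spread evenly, since 18 cells of cluster 19 held 35 of its 46 and 11 cells of cluster 15 held 8, against 1 in the 4436 cells of cluster 7. In the *Gli1*+ uninjured library the 24 mesenchymal UMIs were spread over clusters 7 (9 UMIs), 9 (7), 19 (7) and 17 (1), and 28 of its 56 were in epidermal-like cells.

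*Bmper* was found in 12.7%, 13.1% and 8.07% of thinned *Gli1*+ (unthinned 26.2%, 31.9% and 19.6%) and in 33.2%, 20.9% and 14.3% of thinned *Gli1*- mesenchymal cells (unthinned 52.7%, 49.7% and 31.4%), against 0 to 1.61% of thinned blood endothelial-like cells. Cells with both a ligand and an antagonist UMI were 9.60%, 2.42% and 3.85% of thinned *Gli1*+ and 19.9%, 5.01% and 4.92% of thinned *Gli1*- mesenchymal cells. Cells with a ligand UMI alone went from 35.5% to 9.17% and 12.1% among *Gli1*+ and from 26.7% to 9.18% and 12.0% in *Gli1*- libraries, while those with an antagonist alone were 12.1%, 18.3% and 15.8%, and 22.6%, 23.8% and 20.4%.

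Other genes of the pathway were read from 5 lists. The first list held 15 genes named for the wider BMP, GDF and activin family. It included *Bmp1*, which encodes a protease and not a ligand. Of the 15, 10, 10, 9 and 10 had enough UMIs (*Gli1*+ 7 and 21 dpi, *Gli1*- 7 and 21 dpi). In these comparisons 14.1%, 8.17%, 14.8% and 13.3% of all genes were 2-fold higher and 20.9%, 21.4%, 16.1% and 16.7% lower, with medians of -0.18, -0.34, -0.08 and -0.12, and the counts of each list are to be read against these shares. Of the genes of the first list, 1, 1, 2 and 3 were 2-fold higher and 6, 5, 4 and 4 lower than in uninjured cells. Their medians were -1.64, -0.59, -0.29 and -0.27, each below the median of all genes in its comparison. The 2 higher at *Gli1*- 7 dpi were *Bmp1* and *Gdf11*, so that 1 of them is not a ligand. *Bmp7*, a close relative of *Bmp6*, had log2 ratios of -2.81 and -3.04 among *Gli1*+ and -3.96 and -4.04 among *Gli1*- cells. *Bmp3*, which encodes a BMP that opposes the others, was at -3.06 and -1.98, and at -1.93 and -1.28. *Bmp8a* was at -2.18 and -1.14, and at -1.65 and -0.35.

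Of 17 further genes listed as antagonists, 14, 14, 13 and 13 had enough UMIs. Of these, 2, 1, 2 and 3 were higher and 7, 3, 3 and 1 lower, with medians of -0.85, -0.35, -0.11 and -0.09. The 1 lower at *Gli1*- 21 dpi was *Kcp*, and whether each listed gene acts as an antagonist here was not tested. Apart from *Gli1*+ 7 dpi, the medians were near those of all genes. *Chrdl2*, a chordin-like antagonist, was higher in both sorts at both times, at 4.36 (2.98 to 6.25) and 4.66 (3.29 to 6.55) in *Gli1*+, from 4 UMIs in uninjured cells, and at 3.82 (3.001 to 4.78) and 3.79 (2.97 to 4.76) among *Gli1*- cells, from 12 UMIs. *Fstl1*, a follistatin-like gene, was at 1.11 and 0.80, and at 1.33 and 0.89. *Vwc2* was at -1.53 and -0.32, and at -1.93 and -0.56.

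Of 12 receptors and co-receptors with enough UMIs, 0, 0, 1 and 1 were higher and 3, 3, 5 and 6 lower. The *Gli1*+ counts were near the shares over all genes and the *Gli1*- counts of lower genes above them. *Rgmb*, a BMP co-receptor, was at -1.68 and -1.61 among *Gli1*+ and -2.34 and -2.33 among *Gli1*- cells, and *Acvr2b*, a type II receptor, at -2.13 and -1.0, and at -2.09 and -0.97. *Rgma*, a co-receptor like *Rgmb*, was at -0.49 and -1.14, and at -1.26 and -1.83. Of the 6 SMAD genes, 2 were called lower among *Gli1*+ cells at each time (*Smad6*, *Smad9*) and none among *Gli1*- cells. The same 2 were already 2-fold higher in *Gli1*+ than in *Gli1*- uninjured cells, where 13.3% of all genes were. No SMAD gene passed 2-fold between the sorts at 7 or 21 dpi. *Smad7*, an inhibitory SMAD, was at 0.39 and 0.01, and at 0.55 and 0.29, and the signal-carrying *Smad1* and *Smad5* were between -0.54 and -0.04 in all 4 comparisons.

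Genes that BMP can induce were the last list. Among their counts over uninjured cells, the 8 lower at *Gli1*+ 7 dpi and the 6 higher at *Gli1*- 21 dpi stood furthest from the shares over all genes. In *Gli1*+ cells 8 of 13 were lower and none higher at 7 dpi (median -1.33), and 4 of 14 were lower and 1 higher at 21 dpi (median -0.47). In *Gli1*- cells 2 of 12 were lower and 1 higher at 7 dpi (median -0.30), while 6 of 13 were higher and none lower at 21 dpi (median 0.57). The 6 were *Id2* and *Msx2* and the regulators of bone or cartilage cells *Dlx5*, *Runx2*, *Sp7* and *Sox9*. The sorts already differed before injury. In uninjured cells 8 of 13 were 2-fold higher in *Gli1*+ than in *Gli1*- and none lower (median 1.10), where 13.3% of all genes were higher. *Id2*, *Dlx5*, *Runx2* and *Sp7* were among these 8. The median between the sorts was 0.0 at 7 dpi and 0.06 at 21 dpi. *Id3*, a direct SMAD target, was at -1.48 (-1.51 to -1.45) and -0.37 (-0.39 to -0.34) among *Gli1*+ and at -1.33 (-1.35 to -1.31) and -0.63 (-0.65 to -0.61) among *Gli1*- cells. *Msx1* was at -2.78 and -2.02, and at -1.15 and -0.56. *Msx2* had 1 UMI in each uninjured library and 73 and 78 UMIs at 21 dpi, with log2 ratios of 4.39 (1.87 to 9.71) and 5.23 (2.71 to 10.55).

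The 3 genes most like each of the 9 were taken by Pearson correlation of log2(CPM + 1) over 45 profiles of 1 class in 1 library, among 14375 genes. Profiles of 1 library share its depth and its mice, so these are descriptions. *Grem1* was most like *Il11* (0.762), *Saa3* (0.751) and *Kng1* (0.746), *Bmp2* most like *Epb41l1* (0.676), *Ramp1* (0.654) and *Nckap5* (0.650), and *Bmper* most like *Pdgfra* (0.832), *Mme* (0.817) and *Entpd2* (0.814). For *Gdf5* they were *Barx1* (0.866), *Hapln1* (0.852) and *Ffar4* (0.846), and for *Nog* they were *Chil1* (0.729), *Wif1* (0.7) and *Clec3a* (0.698). *Bmp4* was most like *Ltbp4* (0.761), *2700054A10Rik* (0.756) and *Scmh1* (0.753), *Bmp5* most like *Ggt5* (0.864), *Cacna1c* (0.860) and *Pdgfrb* (0.858), *Bmp6* most like *Atf7* (0.821), *Qki* (0.806) and *Wdfy3* (0.804), and *Fst* most like *Pi15* (0.793), *Wnt5a* (0.760) and *Fzd7* (0.752).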

How the data were processed

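Single-cell 3 prime libraries of tendon cells were read from UMI counts per gene and cell that the authors deposited as filtered matrices. Their processing notes name Cell Ranger 3.1.0, STAR and mm10, while the file headers name Cell Ranger 9.0.0, and the annotation release is not given in the sources used here. Cells with at least 200 genes, 1000 UMIs, a log10 gene to UMI ratio of at least 0.7 and at most 5% mitochondrial and 5% hemoglobin UMIs were kept, and Scrublet marked doublets, which were removed, at an assumed rate of 0.8% per 1000 cells (Python 3.11.15, scanpy 1.11.5). All 6 libraries were clustered together, with 2000 variable genes without the 9 genes, pathway genes, class markers, *Xist*, Y-linked genes and *Cntn5*, 30 components, 20 neighbors and Leiden resolution 0.5. Clusters were named from marker lists, and the naming thresholds were chosen after the clusters were seen. UMIs were summed per library and class of at least 50 cells. Intervals are exact Poisson for levels and exact binomial for ratios, shares and the balance of 1 library (scipy 1.17.1), at 95%. Those of a change or difference of balance between libraries come from a normal approximation on the log scale. UMIs of 1 library share its mice, and intervals hold counting error only. Genes with at least 30 UMIs in both libraries of a comparison together were counted. The 9 genes, the pathway lists and the markers were chosen with earlier results of these data known. Named beside the 9 genes were up to 3 genes per pathway list with the largest ratio of like sign in both sorts and the 3 genes most like each of the 9. Other genes are named where a count or a cluster turned on them, after their values were seen. Alternatives covered the cells taken, the clustering, the scaling (edgeR 4.0.16 TMM factors in R 4.3.3), the sexes and single clusters. The counting steps were tested on simulated data. DoubletFinder, named in the methods, was not used here.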

Additional observations from a re-analysis of the deposited data

How the results depend on the processing

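The change of balance over uninjured kept its sign in all alternatives run except 1. Taking mesenchymal cells by their own UMIs left 48 *Gli1*+ 7 dpi cells and gave 0.22 with 3 of 9 genes past 2-fold for *Gli1*+ 7 dpi. *Bmp5* was then at 0.57, from few UMIs and without an interval. For *Gli1*- 7 dpi this rule gave -1.39 with 5 genes. With every barcode and doublets kept this rule gave -0.78 (4 genes) and -1.33 (5 genes). The main counts were 7 and 8. Over all kept cells the change was -1.80 (*Gli1*+ 21 dpi), -1.95 (*Gli1*- 7 dpi) and -1.26 (*Gli1*- 21 dpi). The mean over cells gave -1.81 at 7 dpi and -1.32 at 21 dpi (*Gli1*+), and -1.12 and -0.84 (*Gli1*-). Cells with Y-linked UMIs and no *Xist* gave -2.63 and -1.66 at 7 dpi. Among settings added after seeing the data, leaving out cluster 9 gave -1.92 and -1.14 in *Gli1*+ cells, and leaving out cluster 23 gave -0.83 in *Gli1*- cells at 21 dpi. TMM factors moved 19 of the 36 single-gene ratios beyond their intervals and median-of-ratios factors 20, with no effect on the balance. Resolution 0.3 or 1.0, a minimum of 2000 UMIs and separate clustering of the sorts moved none, and 20 components moved 1. The choice of cells mattered more, since all kept cells moved 26 and the mean over cells 25. Mesenchymal cells by their own UMIs moved 21 and reversed 1, with 9 the same, and with every barcode kept 20 moved and 12 did not. Cells with Y-linked UMIs and no *Xist* moved 14 and left 4, and those with *Xist* and no Y-linked UMIs moved 4 and left 5. Leaving out cluster 9 moved 12 and cluster 23 moved 9. A sex with under 20 cells in a library gave no value. No fit with a block was made, since each group is 1 library and the labels give no replicate numbers, and the ratios of the sorts are given per time point. Depth limits *Gdf5*, *Grem1* and *Nog* in uninjured cells, where ratios rest on 4 to 84 UMIs.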
